A study of Mus musculus with 37 samples.

Results

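Tailbuds of 37 mouse embryos were ranked by how much RNA of early somite genes they held relative to RNA of progenitor genes, and the 12 highest were compared with the 12 lowest. The members were chosen by a score taken from the same libraries: the mean log2(CPM + 1) of Tcf15 and Meox1 minus that of T and Msgn1, minus the mean score of all embryos with the same somite number, where CPM is a gene's count per 1000000 counts of its library. The 24 embryos of both groups and the 13 between them make up the whole series. One poly(A) RNA-seq library was made per embryo at E8-8.5 from C57BL/6/Cast F1 tailbuds with 6 to 11 somites.

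Both groups mixed both genotypes. Smchd1wt embryos (21 of 37) were Smchd1fl/+, from floxed mothers without Cre. Smchd1matΔ embryos (16 of 37) were Smchd1del/+ and came from Smchd1del/fl mothers with MMTV-Cre, a transgene under a mammary tumour virus promoter that is also active in oocytes. These eggs had no SMCHD1 (a chromatin protein of gene silencing), and the embryos carried 1 deleted allele themselves. All fathers were wild-type Cast males. The tissue was cut caudal to the last segmented somite in order to leave somites out, and it holds presomitic mesoderm, the progenitors behind it and whatever lay against them. Such bulk RNA cannot tell fewer cells of a type apart from less RNA per cell.

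Somites form from presomitic mesoderm. Progenitors at the caudal end are kept by Wnt and FGF signals and express T (brachyury), a T-box factor. Their mesodermal descendants express Msgn1, a bHLH factor of presomitic mesoderm that acts below Wnt signals and T-box factors. Further rostrally, where retinoic acid made by ALDH1A2 opposes FGF, the cells form epithelial somites that express Tcf15 (paraxis), needed for somites to become epithelial, and Meox1, a homeobox factor of the somite. In GRCm38, the deposited table places Tcf15 at chr2:152143561-152149097, Meox1 at chr11:101877510-101894374, T at chr17:8434423-8442496 and Msgn1 at chr12:11208360-11208972.

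The promoter windows of T and Msgn1, and of the 3 genes outside the score on which most of the results turn (Aldh1a2, Twist1 and Wnt3a), are shown. T and Msgn1 are part of the score, and the other 3 RNAs rose or fell with it in the fit over 37 embryos. The windows are RefSeq sequences of GRCm38.p6 from 250 bases before to 50 after the start, and such a window was at hand for 47 of the 62 genes considered. Capitals mark matches on either strand to a T-box core (AGGTGT or ACACCT), a TCF/LEF site (CTTTGA or TCAAAG) and an RBPJ core (TGGGAA or TTCCCA). These letters occur in 13.9%, 16.2% and 25.5% of 27025 promoter windows of the same length.
T, chr17:8434173-8434472, plus strand: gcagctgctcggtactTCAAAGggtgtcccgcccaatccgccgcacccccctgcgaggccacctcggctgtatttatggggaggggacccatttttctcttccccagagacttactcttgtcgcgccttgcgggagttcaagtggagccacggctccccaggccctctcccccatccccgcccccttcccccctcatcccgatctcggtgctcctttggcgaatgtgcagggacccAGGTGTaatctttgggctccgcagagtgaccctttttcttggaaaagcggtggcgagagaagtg
Msgn1, chr12:11208899-11209198, minus strand: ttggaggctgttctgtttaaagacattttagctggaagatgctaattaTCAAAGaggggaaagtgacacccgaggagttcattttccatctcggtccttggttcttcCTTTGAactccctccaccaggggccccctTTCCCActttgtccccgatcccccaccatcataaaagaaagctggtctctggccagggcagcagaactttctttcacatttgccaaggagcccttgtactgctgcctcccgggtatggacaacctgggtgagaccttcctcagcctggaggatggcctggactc
Aldh1a2, chr9:71215539-71215838, plus strand: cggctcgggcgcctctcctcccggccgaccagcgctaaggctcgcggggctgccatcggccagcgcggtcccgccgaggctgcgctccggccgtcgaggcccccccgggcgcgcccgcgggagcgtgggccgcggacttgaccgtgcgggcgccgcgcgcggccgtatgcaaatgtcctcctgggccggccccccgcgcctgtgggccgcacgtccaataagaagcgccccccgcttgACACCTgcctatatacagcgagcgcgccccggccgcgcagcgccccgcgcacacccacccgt
Twist1, chr12:33957421-33957720, plus strand: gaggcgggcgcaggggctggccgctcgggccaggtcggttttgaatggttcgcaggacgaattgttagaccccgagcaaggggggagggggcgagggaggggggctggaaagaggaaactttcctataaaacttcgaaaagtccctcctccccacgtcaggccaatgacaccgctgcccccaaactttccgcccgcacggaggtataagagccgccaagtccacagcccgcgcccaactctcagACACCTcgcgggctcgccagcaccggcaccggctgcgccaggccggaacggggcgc
Wnt3a, chr11:59290702-59291001, minus strand: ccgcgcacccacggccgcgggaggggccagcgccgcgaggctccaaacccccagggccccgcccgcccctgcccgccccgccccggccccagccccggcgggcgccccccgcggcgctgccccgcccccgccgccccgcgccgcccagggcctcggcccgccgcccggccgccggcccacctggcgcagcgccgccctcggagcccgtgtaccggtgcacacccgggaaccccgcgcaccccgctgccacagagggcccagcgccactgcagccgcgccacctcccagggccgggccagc
The T window held 1 T-box and 1 TCF/LEF match, and the Msgn1 window 2 TCF/LEF and 1 RBPJ match. Aldh1a2 and Twist1 held 1 T-box match each, and Wnt3a held none of the 3 motifs. A match of letters is a description and not a bound site.

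The score ran from -1.83 to 2.97 across the 37 embryos. In the high group its lowest, median and highest values were 0.037, 0.686 and 2.97, and in the low group -1.83, -0.532 and -0.363. The groups held 7 Smchd1wt and 5 Smchd1matΔ embryos, and 8 and 4. The last embryo taken into the high group, Smchd1wt 7 somites replicate 4, scored 0.037, and the first left out, Smchd1matΔ 11 somites replicate 2, scored -0.0093. At the other end, Smchd1matΔ 8 somites replicate 2 scored -0.363 and was taken, whereas Smchd1wt 9 somites replicate 2 at -0.331 was not. Both cut points therefore separated near neighbours in score.

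**Figure D1:**
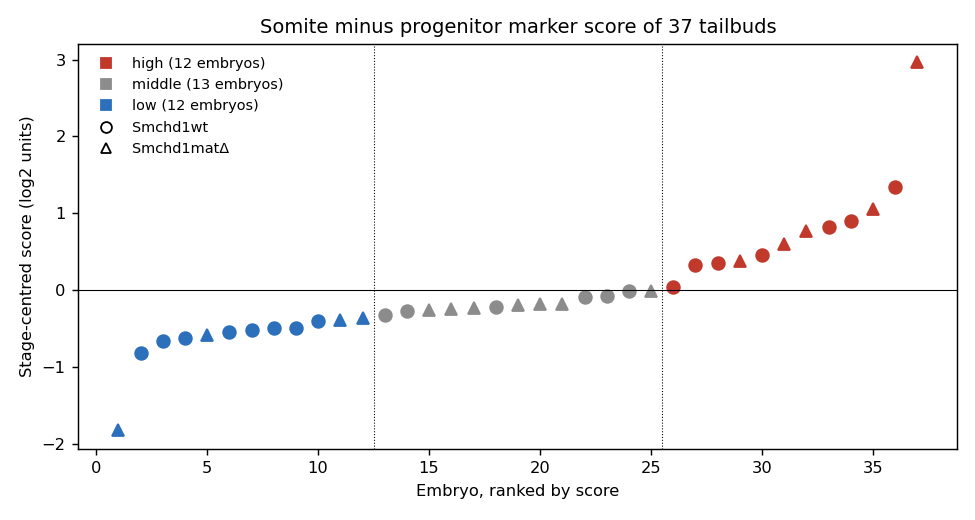
Stage-centred score (log2 units, vertical axis) of each of the 37 embryos in rank order (horizontal axis). Colour gives the group, shape the genotype, and dotted lines the cut points. The scores change little through the middle, and 1 embryo stands apart at each end, at 2.97 and -1.83.

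Libraries that stood apart sat among the members. Library depth ranged from 0.917 to 80.7 (median 12.9), in units of 1000000 counts, and both of these extremes were members: Smchd1matΔ 6 somites replicate 3 with 0.917 in the low group and Smchd1wt 9 somites replicate 1 with 80.7 in the high group. Ribosomal RNA loci took 2.77% and 1.82% of counts in Smchd1matΔ 6 somites replicates 1 and 2, both in the high group, against at most 1.28% elsewhere. These 3 Smchd1matΔ libraries at 6 somites (replicates 1, 2 and 3) are left out below where a result is given without the 3 libraries. Sex labels matched sex-specific RNA in 37 of 37 embryos, and Smchd1 was at 65.3 to 108 CPM in Smchd1matΔ and at 104 to 197 CPM in Smchd1wt embryos.

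The levels of the 4 genes that chose the groups are a description, with no test between the groups. Tcf15 was barely detected: its lowest, median and highest levels were 0.174, 0.776 and 6.76 CPM in the high group and 0, 0.307 and 1.01 CPM in the low group. In counts, the median was 8 reads in the high and 4 in the low group, and 3 high and 5 low embryos held 3 reads or fewer. For these embryos the Tcf15 part of the score thus rested on single reads. Meox1 was at 1.63, 6.59 and 37.3 CPM in the high group against 0, 2.36 and 4.04 CPM in the low group. T, at 99.7, 194 and 280 CPM in the high and 205, 267 and 353 CPM in the low group, and Msgn1, at 14.3, 46.9 and 57.9 against 37.9, 55.9 and 65.5 CPM, were abundant throughout. Every embryo of both groups therefore kept ample progenitor RNA, and the groups overlapped in all 4 genes.

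The label of high somite RNA did not hold for every member. The Tcf15 and Meox1 mean lay above its stage mean in 9 of the 12 high embryos, the T and Msgn1 mean lay below its stage mean in 10, and both held in 7. In 6 of the 12 the departure of T and Msgn1 was the larger of the 2. In Smchd1wt 10 somites replicate 1, which had the second highest score, the somite pair was only 0.0396 above its stage mean (log2 units), while T and Msgn1 were at -1.30 relative to theirs, with 99.7 CPM of T and 14.3 CPM of Msgn1, the lowest of all 37 embryos. Smchd1wt 7 somites replicates 2 and 4 and Smchd1wt 8 somites replicate 3 were in the high group with somite pairs at -0.17, -0.0678 and -0.102 relative to the stage mean. In Smchd1matΔ 6 somites replicate 2, the embryo with the highest score, the somite pair was 2.53 above its stage mean, with 97 reads of Tcf15 and 535 of Meox1. The low group was more uniform: the somite pair was below its stage mean in 11 of 12 and both conditions held in 9. Stage means include every embryo of the stage, so 1 extreme embryo lowers the scores of the others. Smchd1matΔ 6 somites replicate 2 (score 2.96) and Smchd1wt 10 somites replicate 1 (score 1.34) did so, and 4 and 3 low embryos came from these stages. Scores were not centred again, nor groups chosen again, without them. The lowest score belonged to the shallowest library, where both Tcf15 and Meox1 were at 0 counts, which allows up to 3 counts in that library.

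How the 4 genes of the score varied together is likewise given without a test. Across the 37 embryos, the stage-centred means of both pairs had a Pearson's r of -0.173 and a Spearman's rho of -0.0512, and r was 0.0244 without the 2 embryos farthest from the median of the somite pair. Within Smchd1wt (21 embryos) r was -0.202, and -0.395 without 2 embryos. Within Smchd1matΔ (16 embryos) r was -0.489, and 0.0437 without 2 embryos. Leaving out a pair of embryos thus moved r away from 0 in one genotype and to near 0 in the other. For Tcf15 and Meox1, r was 0.735 and rho 0.418, and r was 0.513 without 2 embryos. Without the 3 libraries these were 0.548 and 0.318. For T and Msgn1, r was 0.691 and rho 0.62, and r was 0.503 without 2 embryos. The genes compared share library and depth.

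**Figure D2:**
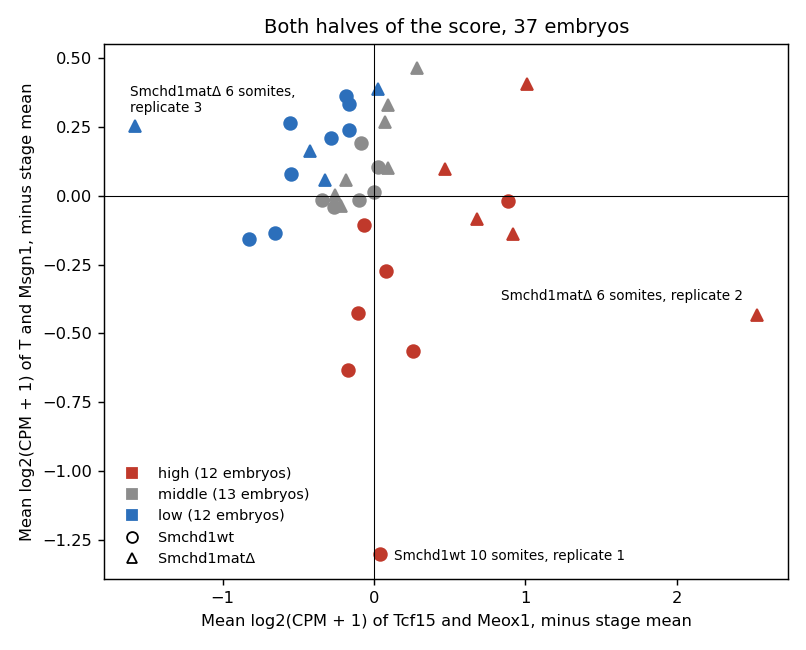
Stage-centred mean log2(CPM + 1) of Tcf15 and Meox1 (horizontal axis) against that of T and Msgn1 (vertical axis) in 37 embryos. Colour gives the group and shape the genotype. The high embryos spread in 2 directions, to the right through Tcf15 and Meox1 and downwards through T and Msgn1, with Smchd1matΔ 6 somites replicate 2 and Smchd1wt 10 somites replicate 1 at the ends.

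The groups were not shown to follow genotype, sex or depth. The stage-matched score difference, Smchd1matΔ minus Smchd1wt, was 0.145 log2 units (permutation p = 0.636, adjusted p = 0.8), and the Fisher's exact test of 5 against 4 Smchd1matΔ embryos in the high and low groups gave p = 1 (adjusted p = 1). Males scored 0.194 higher than females over the 29 embryos of stages that had both sexes (permutation p = 0.402, adjusted p = 0.8), and 7 of 12 high and 9 of 12 low embryos were female (Fisher's exact test, p = 0.667, adjusted p = 0.8). Median depth was 12.9 in the high and 12.1 in the low group, in units of 1000000 counts, a mean difference of 0.36 on the log2 scale (permutation p = 0.479, adjusted p = 0.8). The share of ribosomal RNA loci had medians of 0.591% and 0.517% (permutation p = 0.319, adjusted p = 0.8). All 6 tests were two-sided and adjusted together. Fisher's exact test did not take stage into account, and at 6 somites group and genotype nearly coincided. The 3 high embryos there were all Smchd1matΔ. The 4 low ones were Smchd1wt replicates 1, 2 and 3 and Smchd1matΔ replicate 3. All Smchd1wt embryos of the high group had 7 to 11 somites.

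Outside the 4 genes of the score, no gene passed in the comparison of 12 high with 12 low embryos. Of 16317 genes tested with edgeR's quasi-likelihood test, with somite stage, genotype and sex as covariates, 0 (0%) had an adjusted p under 0.05, and the smallest adjusted p was 0.303. At an unadjusted p under 0.05 there were 775 genes (4.75%) with a higher and 624 (3.82%) with a lower fitted level in the high group. DESeq2's Wald test of the same design called 20 of 16317 genes, 14 higher and 6 lower. The smallest DESeq2 adjusted p was that of Trim38, with an extreme log2 difference of 17.3, next to -0.43 for the second, Wnt3a. DESeq2's adjustment also ran with the score genes among the genes adjusted, and it left out genes by its own filter. The DESeq2 adjusted p-values here and below are therefore not free of the genes that chose the groups. These calls are given with both limits. There was no gene for which every high embryo lay above, or every low embryo above, all embryos of the other group. Differences in this comparison are therefore given below as values. Of the 16317 genes, 8138 had a positive and 8179 a negative difference, which is the background for the counts by list. Genes of a list were measured in the same embryos and can vary together, so a shared sign is not as many separate results.

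Among the 18 somite differentiation factors listed, 2 were in the score and 12 others had enough counts to be tested. Of these, 10 had a positive fitted difference, 3 of them and 1 of the negative ones at an unadjusted p under 0.05, and the median log2 difference was 0.50 against -0.00057 over all genes tested. Without the 3 libraries, 10 were tested, 7 of them positive, with a median of 0.28. Genes not tested there had passed the count filter only with those libraries in. The summed level of the list, score genes left out, overlapped between the groups. It was 144, 171 and 317 CPM (lowest, median, highest) in the high and 79.6, 143 and 296 CPM in the low group. Thus 1 low embryo stood above all but 1 of the 37. In the middle embryos the median of this sum was 139 CPM, below that of either group. The median of the sum therefore did not fall from the middle to the low embryos. Aldh1a2, which encodes the enzyme that makes retinoic acid in somites, was at 8.81, 17.1 and 112 CPM (lowest, median, highest) in the high group and at 3.27, 10.4 and 23.5 CPM in the low group. Of the 12 high embryos, 11 lay above the median of the low group and 4 above its highest member. The log2 difference was 1.19 ± 0.26 (SE; edgeR adjusted p = 0.332, DESeq2 adjusted p = 0.0433) and it was 0.84 without the 3 libraries. Twist1, a bHLH factor of mesenchyme that is also made in cranial and lateral mesoderm, was at 15.8, 35.7 and 50.2 CPM against 6.54, 19.7 and 31.2 CPM. Here 8 high embryos lay above the highest low one, with a difference of 0.85 ± 0.20 (SE; edgeR adjusted p = 0.393, DESeq2 adjusted p = 0.02). Foxc2, a forkhead factor of presomitic mesoderm and somites, had 3.65, 8.3 and 19.3 CPM against 1.58, 5.38 and 6.4 CPM, with 7 high embryos above the highest low one.

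Other somite genes gave no such separation. Pax3, which marks the dermomyotome and also the dorsal neural tube, had medians of 8.13 CPM in the high and 10.5 CPM in the low group (log2 difference -0.37, edgeR unadjusted p = 0.0399). Prrx1, a mesenchyme homeobox factor, had medians of 54.2 and 55.8 CPM, and Foxc1, the relative of Foxc2, 17.6 and 12.4 CPM. Genes of mature somite compartments were near the floor: Pax9 of the sclerotome had medians of 1.14 and 0.899 CPM, and Meox2 of 0.171 and 0.126 CPM.

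The 10 factors of the segment boundary and anterior presomitic mesoderm gave 9 genes tested, 6 with a positive and 3 with a negative difference and a median of 0.62. At an unadjusted p under 0.05 there were 3 positive (Ripply1, Cer1 and Pcdh8) and 1 negative (Epha4). Without the 3 libraries, 6 were tested, 3 of them positive, with a median of 0.33. These medians were carried by scarce RNAs. Pcdh8 (paraxial protocadherin, a cell adhesion gene of the forming boundary) had medians of 0.481 and 0.15 CPM and a highest value of 7.87 CPM in the high group. Cer1, a secreted antagonist of Nodal, BMP and Wnt signals, was at a median of 0 CPM in both groups, reaching 12.3 CPM in Smchd1matΔ 6 somites replicate 2 and at most 0.258 CPM in the low group. Cer1 passed the count filter only with the 3 libraries in. Reads in high embryos thus put it in the test, and its positive sign supports nothing. The boundary genes with ample RNA did not share that sign. Epha4, a receptor tyrosine kinase of the segment boundary, had medians of 84.6 and 101 CPM (log2 difference -0.28 ± 0.10, SE; edgeR adjusted p = 0.532), and Lfng, a Notch modulator of the clock, 18.9 and 19.2 CPM.

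RNAs of the tail end of the axis were on the other side. In the list of streak and neuromesodermal progenitor factors (19 genes, T among them), 18 were tested and 15 had a negative difference, 8 of these at an unadjusted p under 0.05, with a median of -0.17. Wnt3a, the Wnt ligand that maintains T and the progenitors, had the smallest edgeR p of all genes. It was at 42.6, 52.7 and 80 CPM in the high and at 61, 76.2 and 95.4 CPM in the low group, and 1 high embryo lay above the low median. The log2 difference was -0.44 ± 0.08 (SE; edgeR adjusted p = 0.303, DESeq2 adjusted p = 0.00827), and -0.47 without the 3 libraries. Cdx4, a caudal-type homeobox factor that acts upstream of trunk Hox genes, was at 295, 564 and 747 CPM against 553, 693 and 886 CPM (log2 difference -0.40 ± 0.10, SE; edgeR adjusted p = 0.516). Not all progenitor genes shared in this: 3 of the 18 had a positive difference, and others hardly differed. Among the latter, Nkx1-2 had medians of 180.5 and 199 CPM (log2 difference -0.02) and Sox2, the neural and progenitor factor, 33.2 and 32.9 CPM (-0.01).

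Genes of posterior presomitic mesoderm and the segmentation clock looked alike. Of 12 listed, Msgn1 was in the score and 11 were tested, 9 with a negative difference, 5 of these at an unadjusted p under 0.05, and a median of -0.28. Rspo3, a secreted enhancer of Wnt signalling, was at 54.9, 110 and 177 CPM in the high and 122, 140 and 209 CPM in the low group (log2 difference -0.43 ± 0.12, SE; edgeR adjusted p = 0.532). Fgf4, an FGF ligand of the tailbud, was at 2.47, 8.76 and 14.4 CPM against 8.08, 14.5 and 17.8 CPM (-0.58 ± 0.16, SE; edgeR adjusted p = 0.532), and no high embryo lay above the low median. Tbx6, which commits progenitors to paraxial mesoderm, had medians of 32.4 and 41.6 CPM, and Hes7, the oscillator of the clock, 29.6 and 34.1 CPM, neither past an unadjusted p of 0.05.

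The readouts of the signals that hold progenitors in place had lower fitted levels in the high group with few exceptions. All 12 Wnt target and feedback genes had a negative difference (median -0.21), 4 at an unadjusted p under 0.05. Over all genes tested 8179 of 16317 were negative, 624 of them at that level. Dkk1, a secreted Wnt inhibitor, had medians of 22.5 and 35.4 CPM and a log2 difference of -0.45 ± 0.16 (SE; edgeR adjusted p = 0.532), and Tnfrsf19 (Troy), a Wnt target, 243 and 268 CPM (-0.21 ± 0.08, SE; edgeR adjusted p = 0.532). Of 12 FGF response genes, 11 had a negative difference (median -0.19), 5 at an unadjusted p under 0.05. Spry4, a feedback inhibitor of FGF signals, was at 25.8, 54.5 and 66 CPM against 52.1, 64.2 and 80.3 CPM (-0.36 ± 0.09, SE; edgeR adjusted p = 0.448), and Dusp4, a MAP kinase phosphatase, had medians of 222 and 264 CPM (-0.28 ± 0.10, SE; edgeR adjusted p = 0.532). Axin2 and Dkk1 stand in the Wnt and the posterior presomitic lists, Cyp26a1 in the latter and the retinoic acid list.

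The 14 retinoic acid genes tested, Aldh1a2 included, had 8 positive and 6 negative differences and a median of 0.04. Cyp26a1, which degrades retinoic acid in the tailbud, had medians of 107 and 143 CPM (log2 difference -0.37 ± 0.13, SE; edgeR adjusted p = 0.532). Rarb, a receptor gene that retinoic acid itself induces, had medians of 3.63 and 2.45 CPM (log2 difference 0.61, edgeR unadjusted p = 0.0318), and Rdh10, which makes the precursor of retinoic acid, 22.3 and 19.3 CPM (0.36, edgeR unadjusted p = 0.0206).

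**Figure D3:**
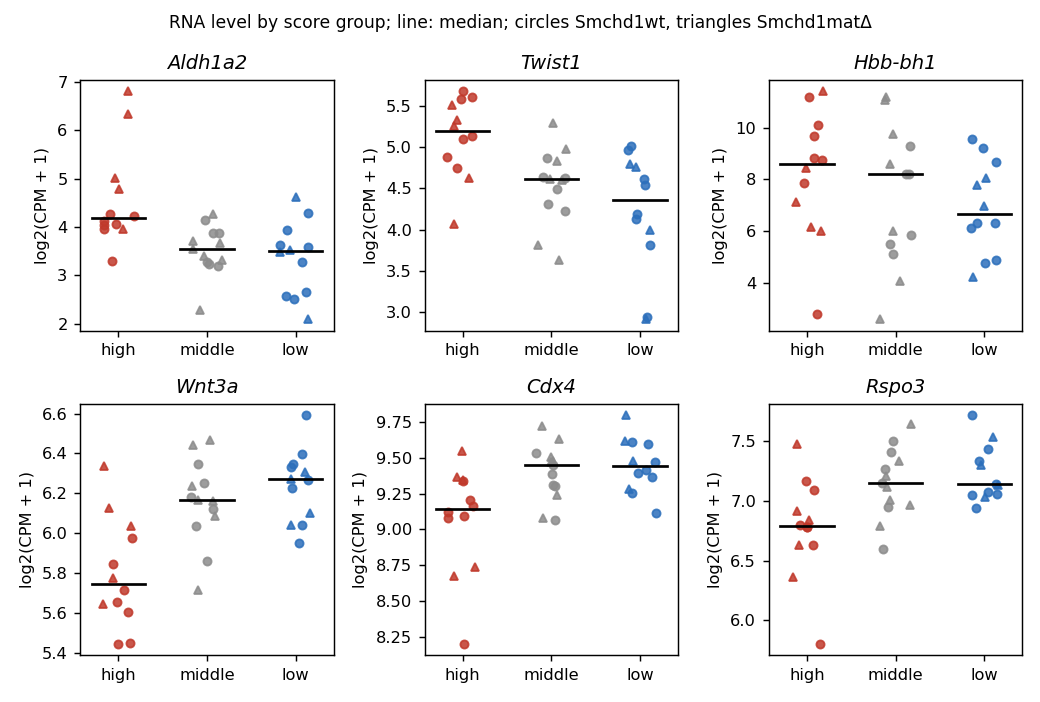
RNA level, log2(CPM + 1), of 6 genes outside the score in the 12 high, 13 middle and 12 low embryos. Each point is 1 embryo and each line the group median. Aldh1a2 and Twist1 have the higher median in the high group (17.1 against 10.4 CPM and 35.7 against 19.7 CPM), Wnt3a, Cdx4 and Rspo3 the lower one, and Hbb-bh1 ranges widely in every group.

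Hox genes, which give the axis its regional identity, were nearly uniform in sign in groups 1 to 9. Over all genes tested, 8179 of 16317 had a negative difference, 624 of them at an unadjusted p under 0.05. All 12 genes of Hox1-4 had a negative difference (median -0.14), 3 at an unadjusted p under 0.05, as had 14 of 15 genes of Hox5-9 (median -0.17), 2 of them at that level. Hoxa7 had medians of 154 and 199 CPM (log2 difference -0.27 ± 0.09, SE; edgeR adjusted p = 0.532), Hoxa3 91.2 and 105 CPM and Hoxb1 65.1 and 78 CPM. Of the 12 genes of Hox10-13, expressed last and most caudally, 8 were tested and 6 had a positive difference (median 0.24, and 0.39 without the 3 libraries), with Hoxa11 at medians of 6.14 and 3.29 CPM (edgeR unadjusted p = 0.0287). Glycolysis genes, whose RNA is graded along the tail, showed a median of 0.003 with 9 positive and 9 negative of 18, and adhesion and matrix genes 0.0003 with 11 and 10 of 21. In the latter list Col3a1, a fibrillar collagen, had medians of 34.9 and 26.4 CPM and reached 184 CPM in Smchd1wt 10 somites replicate 1.

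RNA of tissues outside the tailbud mesoderm had higher fitted levels in the high group too, with no gene past the threshold. All 11 erythroid genes tested had a positive difference (median 1.47), 8 at an unadjusted p under 0.05, and none of the 11 was at 0 throughout a group. Over all genes tested 8138 of 16317 were positive, 775 of them at that level. The summed erythroid level was 19.7, 754 and 3945 CPM (lowest, median, highest) in the high group and 40.3, 194 and 1741 CPM in the low group. Its median was 604 CPM in the middle embryos. Hbb-bh1, an embryonic beta-like globin of yolk sac red cells, was at 5.81, 388 and 2725 CPM against 17.4, 101 and 758 CPM (log2 difference 2.51 ± 0.84, SE; edgeR adjusted p = 0.532), and Gata1, the erythroid transcription factor, had medians of 2.49 and 0.96 CPM. In the endoderm list 10 of 14 had a positive difference (median 0.59), 6 at an unadjusted p under 0.05. Those 6 were Ttr, Apoa1, Apoa4, Apob, Rbp4 and Amn, which visceral endoderm of the yolk sac makes, whereas Foxa2 and Sox17 of the definitive endoderm had log2 differences of -0.16 and 0.04. The summed endoderm level was 390, 1376 and 3360 CPM in the high and 220, 935 and 2021 CPM in the low group. In the middle embryos its median was 802 CPM, below that of either group. The ranges of both lists overlapped broadly between the groups, and their part in the differences of the other genes was not tested.

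Lists of neighbouring tissues gave smaller shifts. All 12 endothelial genes had a positive difference (median 0.23), 4 at an unadjusted p under 0.05, such as Tal1, a blood and vessel factor, at medians of 36.6 and 27.2 CPM. The summed endothelial level had medians of 368 CPM in the high, 385 CPM in the middle and 288 CPM in the low group. The low group thus lay below both others in this median. In lateral plate and intermediate mesoderm 10 of 12 tested were positive (median 0.24, and 0.13 without the 3 libraries), among them Lhx1, an intermediate mesoderm factor, at 1.86, 6.06 and 29.4 against 0.237, 2.11 and 12.6 CPM (log2 difference 1.39 ± 0.36, SE; edgeR adjusted p = 0.516), and Tbx4, a hindlimb and allantois factor, at medians of 42.9 and 19.3 CPM (1.29 ± 0.40, SE; edgeR adjusted p = 0.532). With Smchd1wt embryos alone, Tbx4 was the 1 gene past the threshold (log2 difference 2.08, edgeR adjusted p = 0.0201). Neural tube factors split evenly, 6 and 6 of 12 (median 0.08), with Irx3 at medians of 19.9 and 14.3 CPM and Pax6 at 2.09 and 3.9 CPM, as did node and notochord genes, 6 and 6 of 12 (median -0.06), with Krt8 at 221 and 182 CPM. Without the 3 libraries, where Cer1 was not tested, 5 of 11 node and notochord genes were positive. Germ cell genes had 5 positive and 3 negative of 8 tested (median 0.11), none at an unadjusted p under 0.05.

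**Figure D4:**
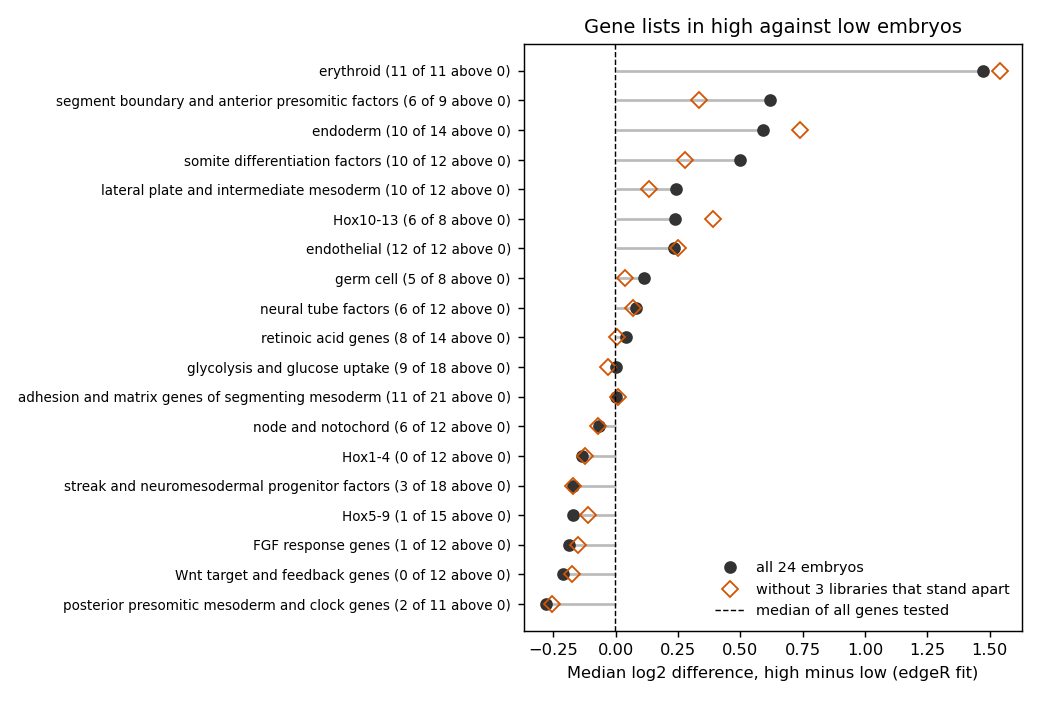
Median log2 difference, high minus low, of the tested genes of 19 lists (horizontal axis), over all 24 embryos (filled) and without the 3 libraries (open). The dashed line is the median of all genes tested, -0.00057. Posterior presomitic, Wnt, FGF and anterior Hox lists lie below 0, and erythroid genes lie farthest above, at 1.47.

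The comparison was repeated with every embryo, as a slope on the score, in which the 4 score genes were again left out of the test. In 37 embryos, with stage, genotype and sex as covariates, 44 of 16725 genes (0.263%) rose and 63 (0.377%) fell as the score rose (edgeR, adjusted p under 0.05). Among somite differentiation factors 3 of 12 tested rose: Aldh1a2 by 0.85 ± 0.10 log2 units per unit of score (SE; edgeR adjusted p = 6.61e-06), Foxc2 by 0.52 ± 0.10 (adjusted p = 0.0137) and Twist1 by 0.45 ± 0.11 (adjusted p = 0.0473). Pcdh8 rose among the 9 boundary genes (1.39, adjusted p = 0.0183), Rarb with Aldh1a2 among the 14 retinoic acid genes (0.47, adjusted p = 0.0256) and Lhx1 among the 12 of lateral and intermediate mesoderm (0.89, adjusted p = 0.0166). Wnt3a fell by 0.22 (adjusted p = 0.0104), and with it Cdx4 (adjusted p = 0.0211) and Fgf17 (adjusted p = 0.0332), 3 of 18 progenitor factors. Rspo3 (adjusted p = 0.0411) was the 1 of 11 posterior presomitic genes that fell. For Hox10-13, germ cell and node genes the list median had the other sign in this fit (-0.07, -0.01 and 0.08). No gene of the erythroid, endoderm, endothelial, neural, notochord, Wnt target, FGF response or Hox lists passed.

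Genes outside the lists that passed in this fit were picked for naming after their values were seen. Among those with the smallest p, Fzd7, a Wnt receptor, rose (0.26 ± 0.04 log2 units per unit of score, SE; edgeR adjusted p = 0.00137), as did Arg1, an arginase (0.57 ± 0.08, adjusted p = 0.000613), Meis1, a homeobox partner of Hox proteins (0.32 ± 0.05, adjusted p = 0.00492), Grem1, a BMP antagonist (0.86 ± 0.18, adjusted p = 0.0164), and Nr2f1, an orphan nuclear receptor (1.94 ± 0.36, adjusted p = 0.00792). Nr2f1 was at 6.9 CPM in Smchd1matΔ 6 somites replicate 2, at 5.67 CPM in replicate 1, and at a median of 0.0685 CPM in the embryos other than replicate 2 and Smchd1wt 10 somites replicate 1. Cldn11, a tight junction gene, likewise had 16.4 and 6.54 CPM in these replicates and a median of 0.544 CPM over the same embryos. Falling genes included the non-coding Evx1os, named for its place opposite Evx1 (-0.18 ± 0.04, adjusted p = 0.015), Nanos1 (-0.48 ± 0.09, adjusted p = 0.01) and the deubiquitinase Cyld (-0.25 ± 0.04, adjusted p = 0.00499). Since counting by strand was not stated, reads of Evx1os and of Evx1 cannot be told apart where they overlap.

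Much of this count rested on single embryos. Without the 3 libraries, 2 of the 107 genes passed, Wnt3a (-0.35, edgeR adjusted p = 0.00937) and Aldh1a2 (0.81, adjusted p = 0.0156). Without Smchd1matΔ 6 somites replicate 2 alone, 24 genes passed, 14 of them among the 107, and without Smchd1wt 10 somites replicate 1 alone, 41, of which 32 were among the 107. Aldh1a2 passed in both (adjusted p = 0.000228 and 6.86e-05), and so did Fzd7, Lhx1 and Meis1, whereas Wnt3a did not pass without the former (adjusted p = 0.0622). In the 13 middle embryos, whose scores spanned -0.331 to -0.0093, edgeR called 0 of 15559 genes (586 at an unadjusted p under 0.05). Over so narrow a span slopes were poorly measured: that of Aldh1a2 was 1.54 ± 1.45 (SE). The 0 therefore cannot tell whether genes follow the score there.

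The 2 sides of the score were then fitted apart, a step added after the data were seen. On the Tcf15 and Meox1 mean alone 41 of 16725 genes (0.245%) passed, 25 of them among the 107, and Foxc2 (0.75 log2 units per unit, edgeR adjusted p = 0.000978), Aldh1a2 (0.92, adjusted p = 0.00356) and Lhx1 (1.05, adjusted p = 0.0275) were among them. On the T and Msgn1 mean alone 1084 of 16725 genes (6.48%) passed, 571 with T and Msgn1 (3.41%) and 513 against (3.07%), and 4 genes passed in both fits. By list, 9 of 18 progenitor factors, 7 of 11 posterior presomitic genes, 8 of 12 Wnt target genes, 6 of 12 FGF response genes and 4 of 12 Hox1-4 genes passed, all in the direction of T and Msgn1. Wnt3a changed by 0.54 log2 units per unit of their mean (adjusted p = 0.000885), Rspo3 by 0.72 (adjusted p = 0.000499), Cdx4 by 0.56 (adjusted p = 0.0016) and Dusp4 by 0.58 (adjusted p = 0.000301). Aldh1a2 (-1.68, adjusted p = 0.00144) and Twist1 (-1.25, adjusted p = 0.000945) went against it. None of 11 erythroid or 14 endoderm genes passed.

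Without Smchd1wt 10 somites replicate 1, 37 of 16239 genes (0.228%) passed on T and Msgn1, 30 of them among the 1084. In the order of the lists above, 3, 1, 0, 1 and 1 members passed both with and without this embryo. This embryo had the lowest summed level of 37 in the streak and progenitor list (2202 CPM, against a median of 3536 in the others), the posterior presomitic list (407 against 757 CPM), the Wnt target list (814 against 1424 CPM), the FGF response list (818 against 1450 CPM) and the Hox1-4 list (470 against 641 CPM). It also ranked 3 of 37 in erythroid RNA (3945 against 486 CPM), 3 in endoderm (3360 against 1140 CPM), 3 in lateral and intermediate mesoderm (483 against 369 CPM) and 2 in node and notochord RNA (536 against 364 CPM). Its endothelial level ranked 3 (435 against 347 CPM), but it ranked 36 in neural tube (261 against 321 CPM) and 33 in germ cell RNA (95.1 against 125 CPM). The tailbud with the least progenitor RNA thus held much RNA of some neighbouring tissues and little of others, and their part in its low T and Msgn1 was not tested.

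Smchd1matΔ 6 somites replicate 2 had the highest summed level of somite differentiation factors of all 37 embryos (317 CPM, against a median of 147 in the others) with 112 CPM of Aldh1a2, 19.3 CPM of Foxc2 and 12.3 CPM of Cer1, next to medians of 11.8, 5.7 and 0 CPM in the embryos other than this and Smchd1wt 10 somites replicate 1. Replicate 1 of the same genotype and stage, also in the high group, came near it: its somite list ranked 3 (294 CPM), with 80.6 CPM of Aldh1a2, 16.4 of Foxc2, 5.96 of Cer1, 5.67 of Nr2f1 and 6.54 of Cldn11. These were the 2 libraries with the highest share of ribosomal RNA loci. In replicate 2 the erythroid level ranked 28 of 37 (115 CPM), endothelial 33 (239 CPM), lateral and intermediate mesoderm 27 (333 CPM), endoderm 12 (1640 CPM) and node and notochord 5 (475 CPM), while its progenitor list ranked 36 (2902 CPM). Replicate 1 ranked 1 in node and notochord (723 CPM), lateral and intermediate mesoderm (562 CPM) and germ cell RNA (205 CPM), and 2 in neural tube RNA (393 CPM). In Hox1-4 and Hox5-9 RNA, replicate 1 ranked 36 and 37 of 37, and replicate 2 ranked 35 and 36. Without replicate 2, 10 of 16167 genes (0.0619%) passed on the Tcf15 and Meox1 mean, 6 of them among the 107, with Fzd7 (0.42, edgeR adjusted p = 0.00197), Foxc2 (0.96, adjusted p = 0.00211) and Nr2f1 (3.28, adjusted p = 0.0114) still among them. Aldh1a2 (1.03) and Lhx1 (1.36) did not pass there (adjusted p = 0.0915 for each). Without Smchd1wt 10 somites replicate 1, 79 genes passed. The protocol placed the cut caudal to the last somite, but the cut of each embryo was not given. How these libraries came by their somite RNA was not tested.

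**Figure D5:**
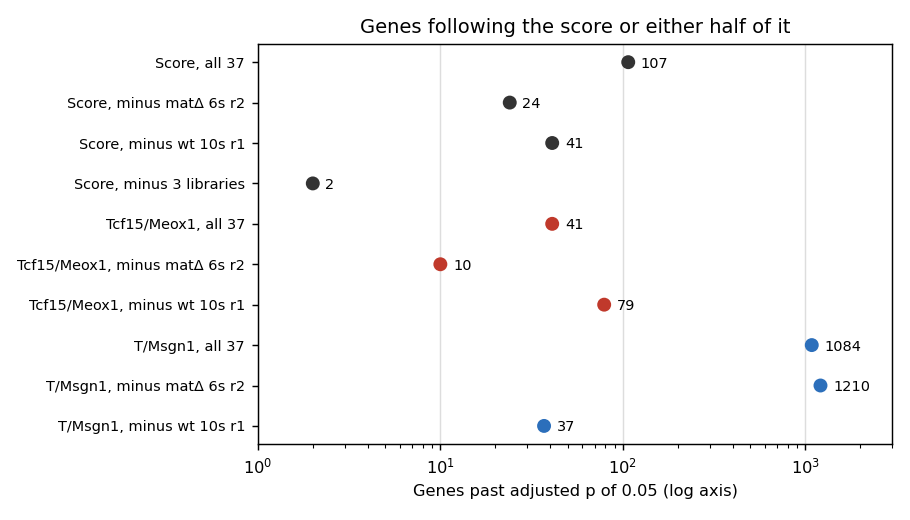
Number of genes past an adjusted p of 0.05 (log axis) in fits on the whole score, on Tcf15 and Meox1 alone and on T and Msgn1 alone, with all 37 embryos and after leaving out named embryos (matΔ 6s r2: Smchd1matΔ 6 somites replicate 2; wt 10s r1: Smchd1wt 10 somites replicate 1). The count on T and Msgn1 goes from 1084 to 37 without 1 embryo.

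Whether the score had a different slope in the 2 genotypes was asked with an interaction term. edgeR called 0 of 16725 genes (1884 at an unadjusted p under 0.05, smallest adjusted p = 0.192), so no difference was shown for any gene, which does not show that the slopes are alike. With the score as a covariate, 2 genes differed between the genotypes. Smchd1 itself was lower in Smchd1matΔ embryos (log2 difference -0.76 ± 0.07, SE; edgeR adjusted p = 6.67e-08) and Peg12, an imprinted gene, was higher (0.47 ± 0.07, adjusted p = 0.00259). The same 2 genes passed without the score in the model. Between the high and low groups neither was called: Smchd1 had a log2 difference of 0.03 ± 0.09 (edgeR adjusted p = 0.937) and Peg12 of 0.05 ± 0.10 (adjusted p = 0.894).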

How the data were processed

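One poly(A) RNA-seq library per embryo, sequenced single-end, was analysed for 37 tailbuds. The authors' methods and the submitters' processing notes give a stranded or an unstranded TruSeq kit (which one per library was not stated), Trim Galore 0.4.4, HISAT2 2.0.5 on GRCm38 and SeqMonk. The counts that the authors deposited are whole numbers for each gene, without normalisation. Deposited tables of log2 RPKM and of the authors' own fold changes and p-values were not used. Of 35591 rows, 49 with a repeated identifier were dropped, and 27 names turned into dates were restored. No pair of libraries of 1 group agreed within sampling noise (chi-square per degree of freedom 5.12 to 72.3), so each counted once. Counts carry no molecular identifiers, so floors cover counting error only.

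The score and levels use CPM from column totals with a pseudocount of 1. Genes were tested with edgeR 4.0.16 (filterByExpr, minimum count 10, TMM, quasi-likelihood test, R 4.3.3), Benjamini-Hochberg adjustment and a threshold of 0.05, and DESeq2 1.42.0 was an alternative. Each SE given with an edgeR value is approximate. It is the absolute log2 value divided by the square root of the quasi-likelihood F, and not a standard error from the fit itself. The 4 score genes were kept in the fits, and in edgeR they were left out before the adjustment and given no test. In DESeq2 they were taken out only after the adjustment, which used its independent filtering. For the 13 middle embryos the somite number entered as a linear term, and genotype and sex were not covariates. Single values were tested by 100000 permutations of embryos, within stages for the score. The code was tested on simulated data. The groups, gene lists and tests were chosen with earlier results of these data known. Genes named by rule are the members of each list past the threshold (at most 4) or, where none passed, the 2 with the smallest p in the comparison of high with low embryos, and the others were chosen after their values were seen. A gene in a list is counted in each list that holds it. Ahsp of the erythroid list had no row in the table used here. Alternatives were other size factors, no filter on counts, other covariates, groups or embryos, and either side of the score.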

Additional observations from a re-analysis of the deposited data

Results flagged for a closer look

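In Smchd1wt 10 somites replicate 1 the mean log2(CPM + 1) of T and Msgn1 was 5.29, against 6.7 to 6.96 in the other 3 Smchd1wt embryos at 10 somites. Its gap to the nearest of them was 0.845 of the range of the group of 4, above Dixon's critical value of 0.829. This mean is a part of the score, and it put the embryo in the high group, so the gap describes a chosen value and supports nothing further. It was the 1 flag among 16 group and measure pairs looked at, and chance alone flags about 1 group in 20.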

How the results depend on the processing

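Without any gene called between high and low embryos, most alternatives gave 0 as well: other size factors, fewer covariates, groups chosen on TMM CPM (which were the same embryos), females or Smchd1matΔ embryos alone, and without the 3 libraries. DESeq2 called 20, no filter on counts 7 and Smchd1wt embryos alone 1. Leaving out each embryo in turn gave 0 to 54 genes, with 0 in 21 of 24 fits: 54 came without Smchd1matΔ 8 somites replicate 2, the embryo nearest to the cut point, 8 without Smchd1matΔ 10 somites replicate 3 and 1 without Smchd1matΔ 6 somites replicate 1, and the cause was not tested. For the slope on the score, 107 genes became 2 without the 3 libraries, 24 without Smchd1matΔ 6 somites replicate 2 and 41 without Smchd1wt 10 somites replicate 1. The Tcf15 and Meox1 mean alone gave 41 (10 without Smchd1matΔ 6 somites replicate 2, 79 without Smchd1wt 10 somites replicate 1) and the T and Msgn1 mean alone 1084 (1210 and 37). A replicate block gave 170 genes for the slope, 106 of them among the 107, and 0 for high against low, and it changed neither call between genotypes. Replicate numbers are shared across genotypes, and whether they mark a batch was not stated. Same-numbered embryos of a stage had a median correlation of 0.00729 in their deviations (-0.284 to 0.754, 16 pairs). The median was 0.00843 in 42 pairs of different numbers. Deviations were taken from the means of small groups, which limits what these values show, and a shared batch was not tested. Of the 35 genes named by rule, 12 values under other settings passed where the main one did not and 1240 kept their side of the threshold. For the 24 named from the slope, 120 no longer passed and 167 did, none with a change of sign. Without the 3 libraries the score difference between genotypes was -0.03 (not called in any setting) and r between the somite and progenitor pairs 0.0395. Low counts of Tcf15 limit the score itself.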
